A study of Mus musculus with 8 samples.

Results

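Transcripts of 6 families of amino acid carriers were examined in basal cells of mouse back skin epidermis. The members are the genes whose platform symbol begins with Slc1a, Slc3a, Slc7a, Slc36a, Slc38a or Slc43a followed by digits. This rule gave 39 of the 17097 genes measured, and 38 of them encode transporters. The other one is Slc36a1os, a transcript from the strand opposite Slc36a1. Of the 42 family genes in the current RefSeq table for mouse, 4 (Slc1a4, Slc36a4, Slc38a8 and Slc38a11) had no probe set with 1 symbol here and were not analysed.

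Cells import amino acids through carriers that differ in what they move and in what drives them. Light chains of the Slc7a family reach the cell surface bound to a heavy chain, either the product of Slc3a2 (CD98, which also binds integrin beta chains) or that of Slc3a1. Sodium-coupled carriers of the Slc38a family load the cell with neutral amino acids such as glutamine, and exchangers then trade these for leucine and other essential ones. The amino acids feed protein synthesis and are sensed at the lysosome by the kinase complex mTORC1. When they run short, the transcription factor ATF4 raises many transporter and synthesis genes through a C/EBP-ATF response element, with the core TGATGNAA.

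The mice were of the outbred CD1 strain, with 1 array per mouse. Skin of 3 mice was untreated (control), skin of 3 mice was taken at day 4 of force-mediated tissue expansion (expanded), and 2 mice were given the phorbol ester TPA, an activator of protein kinase C that makes epidermis proliferate. The labels give no genotype, age, TPA dose or TPA schedule. For each array 300 cells were sorted as ITGA6-positive and CD34-negative, a gate that per the labels also takes in the infundibulum of the hair follicle. The unit is the log2 RMA signal, and group values are mean ± SD (n = 3 for control, n = 3 for expanded, n = 2 for TPA). Differences are log2 differences ± SE from limma fitted over all 8 arrays, and a gene is called at an adjusted p (Benjamini-Hochberg over all 17097 genes) under 0.05.

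The basal keratins Krt5 (13.28 ± 0.05 in control arrays) and Krt14 (13.30 ± 0.04) were high on every array, and Cd34 lay under background on every array. Of the 5 basal markers, 2 were called lower against control: Itga6, the integrin used for the sort (-0.47 ± 0.07 in expanded and -0.69 ± 0.08 in TPA arrays), and its partner Itgb4 (-0.38 ± 0.06 and -0.32 ± 0.07). Genes known to rise with phorbol ester ran against the TPA label. Odc1, which makes polyamines, stood at 11.34 ± 0.02 in control, 9.84 ± 0.14 in expanded and 8.99 ± 0.09 in TPA arrays, and the wound keratin Krt16 at 13.04 ± 0.01, 12.90 ± 0.04 and 12.15 ± 0.07. Arrays are therefore named by their labels below. If those of control and TPA were exchanged, TPA minus control would turn in sign, and what is given for expanded against control would hold for expanded against TPA, and the reverse. Of the 5 suprabasal keratinocyte markers 3 (Krt1, Krt10 and Krtdap) were called higher in both comparisons with control, Sbsn did not pass and Lor was under background on every array. Their summed signal was 13.35 to 13.86 (log2) in control, 14.50 to 14.61 in expanded and 14.39 to 14.51 in TPA arrays. Some markers of other cells moved as well. The summed signal of 5 Langerhans cell markers was 10.33 to 10.94 in control, 9.47 to 9.79 in expanded and 9.95 to 10.17 in TPA arrays, and that of 5 macrophage and neutrophil markers 8.61 to 9.51, 8.28 to 8.42 and 8.31 to 8.36. In the Langerhans list Cd207 and Itgax were under background on every array, and Cd74 was not called against control. H2-Ab1 was called lower in both comparisons with control, and Epcam in expanded arrays only. Epcam had the highest mean of this list in each group (9.70 ± 0.18, 8.66 ± 0.31 and 9.45 ± 0.23) and so weighs most in the sum. The summed signal of 4 measured T cell markers was 9.10 to 9.51, 10.24 to 10.32 and 10.30 to 10.46, through Thy1 alone, as the other 3 were under background on every array. The 5 fibroblast markers summed to 8.54 to 8.97, 8.72 to 8.86 and 9.25 to 9.46. Against control only Dcn of these was called, higher in TPA arrays. Col1a1 was lower there without passing (-0.68 ± 0.31), and Col1a2 and Pdgfra were under background on every array. The 3 measured sebaceous gland markers summed to 11.94 to 12.38, 11.51 to 12.26 and 11.26 to 12.81, with the TPA arrays furthest apart. Of these markers only Plin2 was called, lower in TPA arrays than in control (-1.53 ± 0.43). The 5 endothelial markers summed to 8.72 to 10.74, 8.91 to 9.64 and 8.54 to 8.68, and none was called. Against control, Nfatc1 of the bulge list was called higher in TPA arrays (0.46 ± 0.11), and Hba-a1 of red blood cells lower (-0.63 ± 0.14). The part of these cells in the differences below was not tested. In bulk RNA, fewer cells of a type and less RNA per cell cannot be told apart.

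Since no detection calls were used, background was set on each array at the 95th percentile of 77 genes for odorant, pheromone and trace amine receptors (6.40 to 6.56). A member counts as above background if every array of at least 1 group exceeded its limit, which 17 of the 39 did. Another 4 (Slc1a5, Slc36a1, Slc38a1 and Slc38a6) exceeded it on some arrays only, and 18 on none. By family, 6 of 9 Slc38a members, 5 of 15 Slc7a, 3 of 3 Slc43a, 2 of 2 Slc3a, 1 of 6 Slc1a and 0 of 4 Slc36a members were above background. Slc43a1, Slc3a1, Slc7a2 and Slc1a7 met the rule in only some of the groups. A signal under the limit on these arrays does not show that a transcript is absent.

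Between expanded and control arrays 4 of the 39 members were called, all higher (Slc3a2, Slc7a4, Slc7a6 and Slc1a3), and 2 without control replicate 2. That is 10.3% of the members, beside 11.5% of all genes tested, and the 4 higher calls stand beside 5.69% of all genes called higher and 5.78% lower. Between TPA and control 8 members were called, 7 higher and 1 lower. That is 20.5%, beside 20.8% of all genes, with 10.2% of all genes called higher and 10.6% lower. Between expanded and TPA 3 members were called, all lower in expanded, and 1 without expanded replicate 3 or without TPA replicate 1. That is 7.69%, beside 5.98% of all genes, with 3.16% of all genes called higher and 2.81% lower. The families thus were called about as often as the genes of the array at large, and the median member differed by -0.01, -0.03 and 0.00 in the 3 comparisons, beside 0.01, -0.03 and 0.03 over all genes. Of the 17 members above background 3, 7 and 3 were called, beside 17.5%, 31.1% and 9.31% of all genes above background. Nothing is read from these counts, since a gene can pass the limit only through the group where it is high, which favours a difference. Among the called members above background this applies to Slc43a1. Slc3a1, Slc7a2 and Slc1a7 also passed in only some groups and were not called. The comparisons share arrays, so they are not independent of each other.

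**Figure D1:**
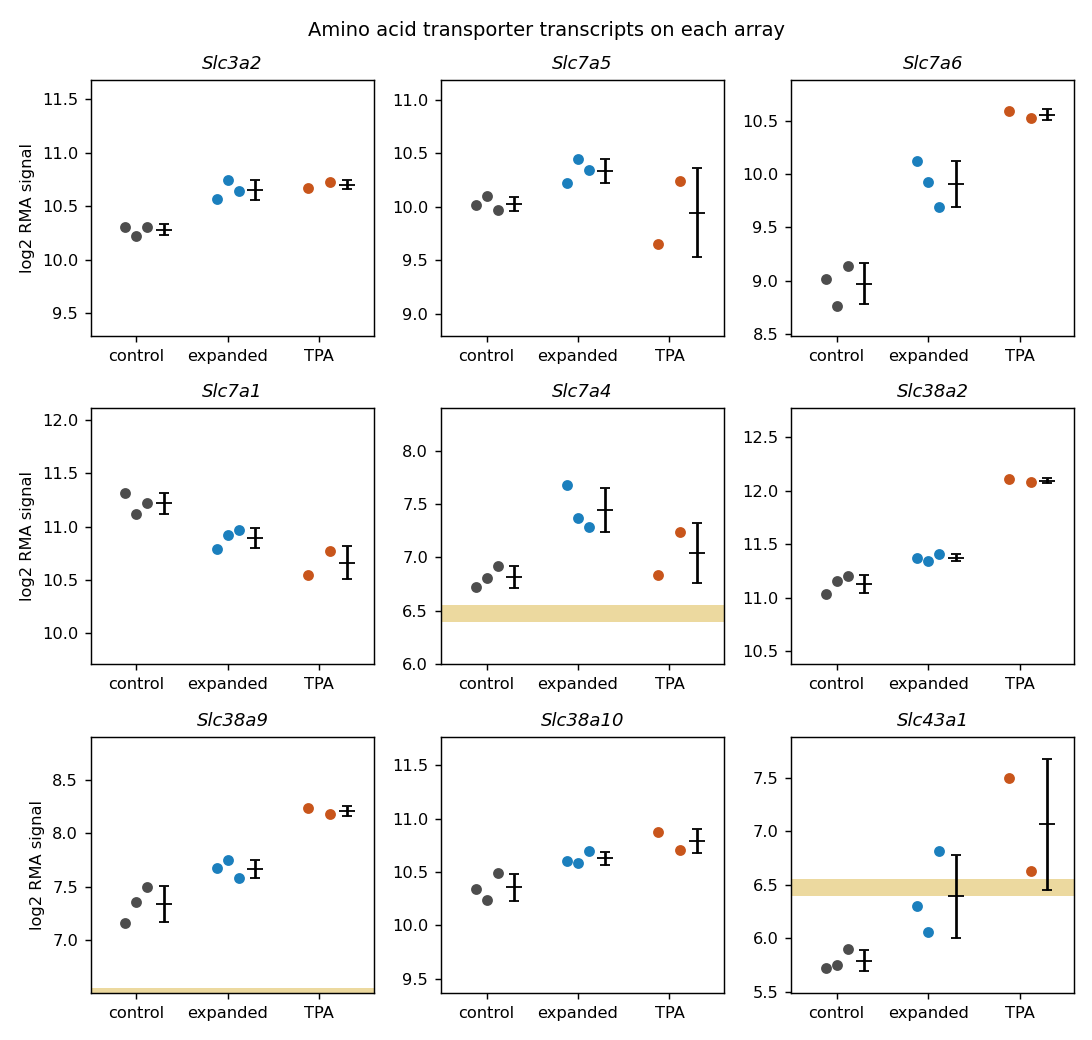
Log2 RMA signal (vertical axis, which does not start at 0) of 9 transporter transcripts on each array, by group. Points are arrays, bars are mean ± SD, and the yellow band spans the background limits (6.40 to 6.56) where it falls in the panel. Slc7a6 and Slc38a2 are highest in both TPA arrays, Slc7a1 is highest in the control arrays, and the TPA arrays lie apart for Slc7a5 and Slc43a1.

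The upstream sequences of 3 members are shown because they hold, or lack, the core of the ATF4 response element. Each is the 150 bases before the first annotated start in RefSeq's GRCm38.p6 table, 5′ to 3′ on the gene's strand, and capitals mark matches to TGATGNAA on either strand. Slc7a11 (chr3:50443614-50443763, minus strand) holds 2 matches. Slc7a6 (chr8:106168704-106168853, plus strand) and Slc38a2 (chr15:96699729-96699878, minus strand), which had the largest differences among called members well above background, hold none in this stretch.
Slc7a11: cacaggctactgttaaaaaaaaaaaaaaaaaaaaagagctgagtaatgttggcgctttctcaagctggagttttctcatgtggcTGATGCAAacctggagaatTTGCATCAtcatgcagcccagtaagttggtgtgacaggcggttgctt
Slc7a6: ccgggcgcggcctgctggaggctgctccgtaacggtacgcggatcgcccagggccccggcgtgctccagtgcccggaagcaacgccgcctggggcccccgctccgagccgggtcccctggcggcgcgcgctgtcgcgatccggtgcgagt
Slc38a2: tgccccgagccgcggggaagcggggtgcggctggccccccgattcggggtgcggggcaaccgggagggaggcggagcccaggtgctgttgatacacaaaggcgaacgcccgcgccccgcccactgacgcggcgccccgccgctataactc
Of the 39 members, 28 had at least 1 promoter window (250 bases before to 50 after a start) in the table, and 2 of these genes, Slc7a11 and Slc7a7, held the core. Of all 32851 windows 3.97% held it, beside 7.69% of the 39 windows of members. A match is a run of letters and not a binding site, and its absence here says nothing about elements elsewhere in a gene.

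Among the heavy chains, Slc3a2 was higher in expanded and in TPA arrays than in control arrays. Its signal was 10.31, 10.22 and 10.31 in the control arrays, 10.57, 10.75 and 10.64 in the expanded arrays, and 10.67 and 10.73 in the TPA arrays. The control arrays lay under all others, and the expanded and TPA arrays overlapped. The difference was 0.37 ± 0.07 between expanded and control (1.29-fold, adjusted p = 0.0129) and 0.42 ± 0.08 between TPA and control (1.34-fold, adjusted p = 0.0067). The first of these lost its call without control replicate 2 (adjusted p = 0.0563). Between expanded and TPA Slc3a2 did not pass (-0.05 ± 0.08, adjusted p = 0.818).

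Slc3a1, the heavy chain of the kidney and gut cystine carrier, stayed close to the background limit. It read 6.23, 6.71 and 6.54 in control, 6.35, 6.47 and 6.17 in expanded and 6.85 and 6.94 in TPA arrays. The TPA arrays were the highest, but no comparison passed (0.40 ± 0.14 between TPA and control, adjusted p = 0.087, and -0.57 ± 0.14 between expanded and TPA, adjusted p = 0.0576).

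Of the 9 light chains, 2 were above background, Slc7a5 and Slc7a6. Slc7a6, which exchanges cationic for neutral amino acids, had the largest difference from control of any member. It read 9.02, 8.76 and 9.14 in control arrays, 10.12, 9.92 and 9.69 in expanded arrays, and 10.59 and 10.52 in TPA arrays. No 2 groups overlapped, with control lowest and TPA highest. It was 1.92-fold higher in expanded than in control arrays (0.94 ± 0.13, adjusted p = 0.00231) and 3.00-fold higher in TPA than in control (1.58 ± 0.14, adjusted p = 0.000125). Expanded arrays were lower than TPA arrays (-0.65 ± 0.14, adjusted p = 0.037). That last call is fragile, as 5 of 8 omissions of a single array ended it (control replicate 1, expanded replicate 2 or 3, TPA replicate 1 or 2, with adjusted p up to 0.153). The second probe set of the gene was under background on every control array and above it on all others. Counted from the limit it was at least 0.36 higher in expanded arrays (adjusted p = 0.00242) and at least 0.63 higher in TPA arrays (adjusted p = 0.000527). It did not pass between expanded and TPA (-0.27 ± 0.14, adjusted p = 0.349).

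Slc7a5, the importer of leucine and other large neutral amino acids that pairs with the product of Slc3a2, was not called in any comparison. It read 10.02, 10.10 and 9.97 in control, 10.22, 10.45 and 10.34 in expanded, and 9.65 and 10.24 in TPA arrays. The expanded arrays lay above the control arrays, while 1 TPA array lay under all control arrays and the other just above the lowest expanded array. The difference was 0.31 ± 0.14 between expanded and control (adjusted p = 0.23), -0.09 ± 0.16 between TPA and control (adjusted p = 0.766) and 0.40 ± 0.16 between expanded and TPA (adjusted p = 0.206). The last of these was 0.10 without TPA replicate 1, and 0.69 and called without TPA replicate 2 (adjusted p = 0.0193). With only the control and expanded arrays in the fit, the difference of Slc7a5 between expanded and control was called (0.31, adjusted p = 0.0499). Omitting either TPA array repeats this fit, since a single array left in a group adds nothing to the estimate of the spread.

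The other 7 light chains lay under background on every array. They include Slc7a11, the cystine importer that supplies glutathione synthesis and whose promoter holds both matches above. It read 4.95, 5.03 and 5.11 in control, 4.95, 4.89 and 4.87 in expanded, and 4.92 and 5.20 in TPA arrays, and its other probe set was under background on every array too. Slc7a9, the partner of the product of Slc3a1, stood at 5.17 ± 0.06, 5.03 ± 0.04 and 5.20 ± 0.06 and was not called (lowest adjusted p = 0.248). Slc7a7, Slc7a8, Slc7a10, Slc7a12 and Slc7a13 were not called in any comparison either.

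Among the cationic carriers and their relatives without a heavy chain, Slc7a1 was lower in TPA arrays. Slc7a1 is the main importer of arginine and lysine in many cell types. Its signal was 11.31, 11.12 and 11.22 in control, 10.79, 10.92 and 10.97 in expanded, and 10.55 and 10.77 in TPA arrays. No 2 groups overlapped, with control highest. The difference was -0.56 ± 0.10 between TPA and control (1.47-fold lower, adjusted p = 0.00459), and its other 2 probe sets gave -0.44 ± 0.12 (adjusted p = 0.0296) and -0.69 ± 0.18 (adjusted p = 0.0282). Between expanded and control it narrowly missed the threshold (-0.32 ± 0.09, adjusted p = 0.054), and 3 other settings called it, such as a fit to only those 2 groups (adjusted p = 0.0443).

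Slc7a4, a relative for which transport activity is not well established, was called in the expanded arrays only against control. It read 6.72, 6.81 and 6.92 in control, 7.68, 7.37 and 7.29 in expanded, and 6.84 and 7.24 in TPA arrays. All expanded arrays were above the others. It differed by 0.63 ± 0.13 between expanded and control (1.54-fold, adjusted p = 0.0182), a call that omitting expanded replicate 1, control replicate 1 or control replicate 2 ended (adjusted p up to 0.0645). Neither TPA against control (0.22 ± 0.15, adjusted p = 0.37) nor expanded against TPA (0.41 ± 0.15, adjusted p = 0.172) passed. Its other probe set was called between TPA and control instead (adjusted p = 0.0416), but was above background on 1 array only.

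Slc7a2, an arginine carrier of hepatocytes and activated macrophages, read 7.65, 6.77 and 6.89 in control, 6.42, 6.50 and 6.08 in expanded, and 6.81 and 6.25 in TPA arrays. Control replicate 1 was the highest of all arrays. That array was also the highest for the endothelial markers Cdh5 (9.73, and 6.44 to 8.42 on the others), Emcn (8.14, and 5.64 to 6.69) and Pecam1 (8.30, and 6.51 to 7.61). Kdr, also an endothelial marker, stood at 6.81 ± 0.74 in control, 6.83 ± 0.49 in expanded and 6.44 ± 0.35 in TPA arrays. Tek, the remaining one, was under background on every array. Of the macrophage markers, Cd14 stood at 6.95 ± 0.32 in control, 6.07 ± 0.14 in expanded and 6.03 ± 0.01 in TPA arrays, and Lyz2 at 6.91 ± 1.46, 5.27 ± 0.09 and 5.13 ± 0.09. Both lay under background on every expanded and TPA array. Csf1r stood at 6.97 ± 0.10, 6.73 ± 0.16 and 6.90 ± 0.13 and was not called. Adgre1 and Cxcr2, of the same list, were under background on every array. The part of other cells in Slc7a2 was not tested. It did not pass between expanded and control (-0.77 ± 0.24, adjusted p = 0.0825) or between TPA and control (-0.58 ± 0.27, adjusted p = 0.189). A different probe set of the gene was called lower in both (adjusted p = 0.0243 and 0.009), but its signals were under background on every array. Slc7a3 and Slc7a14 lay under background on every array, as did Slc7a15, and were not called.

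**Figure D2:**
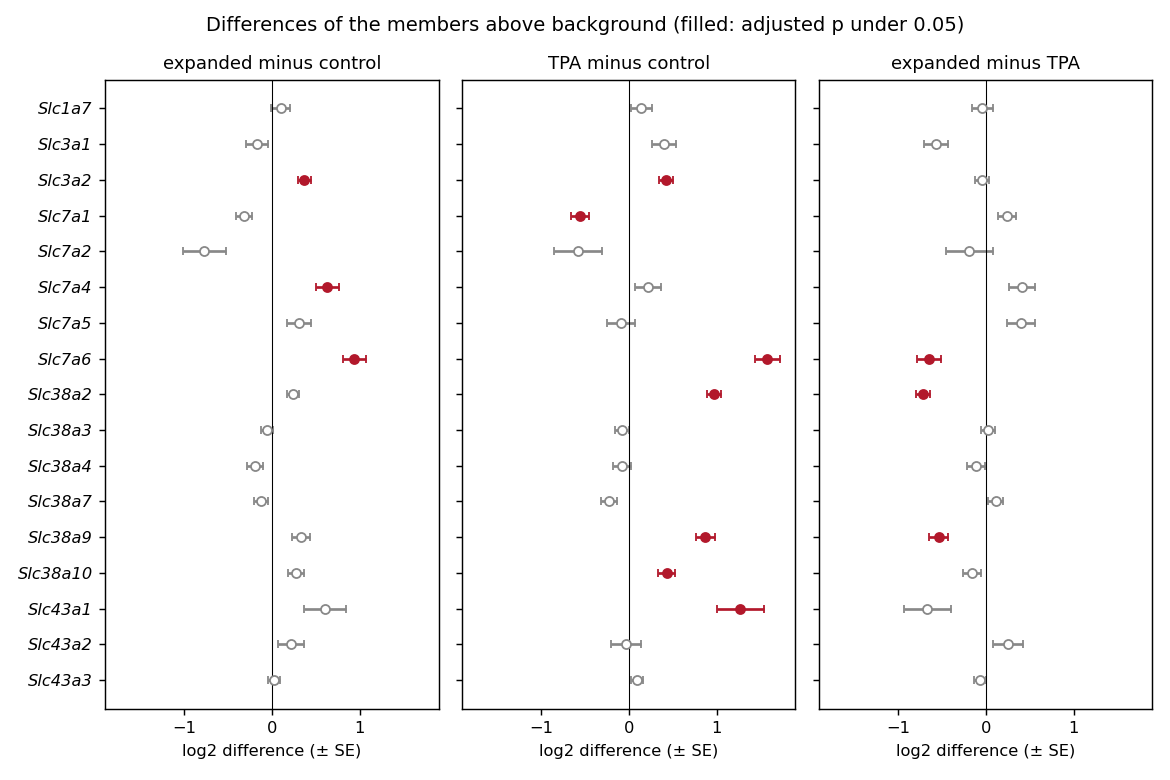
Log2 differences (horizontal axes, points with SE) of the 17 members above background in the 3 comparisons, with filled points for an adjusted p under 0.05. Slc7a6 and Slc3a2 are filled in both comparisons with control, and Slc7a6, Slc38a2 and Slc38a9 are filled on the left of 0 in expanded minus TPA.

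Among the sodium-coupled carriers of systems A and N, Slc38a2 was higher in TPA arrays than in both other groups. Slc38a2 loads cells with alanine, glutamine and other small neutral amino acids, and is known for its induction by amino acid shortage and by hypertonic stress. It read 11.03, 11.15 and 11.20 in control, 11.37, 11.34 and 11.41 in expanded, and 12.11 and 12.08 in TPA arrays. No 2 groups overlapped, and the TPA arrays stood far above the rest. The difference was 0.97 ± 0.08 between TPA and control (1.95-fold, adjusted p = 6.93e-05) and -0.72 ± 0.08 between expanded and TPA (1.65-fold lower, adjusted p = 0.00185). Its 3 probe sets were all called in both: the other 2 gave 0.66 ± 0.08 and 1.16 ± 0.12 between TPA and control, and -0.56 ± 0.08 and -1.02 ± 0.12 between expanded and TPA. Expanded against control missed the threshold (0.24 ± 0.07, adjusted p = 0.0607). There 5 other settings called it, 2 of them another scaling of the arrays (quantile normalization and centring on the array median).

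Slc38a4, a carrier of neutral amino acids best known from liver and placenta, gave probe sets that disagreed. The brighter one read 10.70, 10.53 and 10.42 in control, 10.34, 10.37 and 10.38 in expanded, and 10.36 and 10.57 in TPA arrays, and was not called (lowest adjusted p = 0.276). The dimmer one, at 7.78 ± 0.18, 7.63 ± 0.10 and 8.18 ± 0.12, was called higher in TPA than in control (0.40 ± 0.12, adjusted p = 0.0483) and lower in expanded than in TPA (-0.55 ± 0.12, adjusted p = 0.0364).

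Slc38a3, a glutamine carrier of system N, stood at 7.70 ± 0.08, 7.63 ± 0.03 and 7.61 ± 0.07 and was not called. Slc38a1, close in sequence to Slc38a2, exceeded background on 2 of 3 control arrays and on no other array (6.51 ± 0.20, 6.16 ± 0.21 and 6.10 ± 0.04), and was not called (lowest adjusted p = 0.0801). Slc38a5 lay under background on every array.

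Among the more distant Slc38a members, Slc38a9 was higher in TPA arrays than in both other groups. Its product sits in the lysosomal membrane, where it reports arginine to mTORC1. It read 7.16, 7.36 and 7.50 in control, 7.68, 7.75 and 7.58 in expanded, and 8.24 and 8.18 in TPA arrays, again with no overlap between groups. The difference was 0.87 ± 0.11 between TPA and control (1.83-fold, adjusted p = 0.000664) and -0.54 ± 0.11 between expanded and TPA (1.45-fold lower, adjusted p = 0.0245). That second call did not survive 4 of 8 omissions of a single array (expanded replicate 1 or 3 or TPA replicate 1 or 2, adjusted p up to 0.119) and with the mean of the gene's probe sets (-0.07, adjusted p = 0.751). Expanded against control missed the threshold (0.33 ± 0.10, adjusted p = 0.062). Slc38a9 has 4 probe sets, and only this one was above background. A second one, above background on 2 expanded arrays and on no other, was at least 0.24 higher in expanded than in control arrays (adjusted p = 0.0403), and did not pass between expanded and TPA (adjusted p = 0.40).

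Slc38a10, a little-studied member, read 10.34, 10.24 and 10.49 in control, 10.60, 10.58 and 10.70 in expanded, and 10.87 and 10.71 in TPA arrays. TPA differed from control by 0.43 ± 0.10 (1.35-fold, adjusted p = 0.0141), a call lost without TPA replicate 1 (adjusted p = 0.0981). Of its 8 probe sets only this one was called, and the other 7 ranged from -0.35 ± 0.15 to 0.32 ± 0.10. With the mean of its probe sets the difference was 0.09 (adjusted p = 0.498). Slc38a7, a glutamine exporter of lysosomes, stood at 8.33 ± 0.07, 8.21 ± 0.13 and 8.10 ± 0.02 and was not called (-0.23 ± 0.09 between TPA and control, adjusted p = 0.131). Slc38a6 exceeded background on 2 of 3 control and 2 of 3 expanded arrays and on 0 of 2 TPA arrays, and was not called.

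Of the facilitated carriers, Slc43a1, which moves leucine and related amino acids without an ion gradient, was higher in TPA arrays. It read 5.72, 5.75 and 5.90 in control, 6.30, 6.06 and 6.82 in expanded, and 7.50 and 6.63 in TPA arrays. Control arrays were all under background, 1 of 3 expanded arrays was above it, and both TPA arrays were. Between TPA and control the fitted difference was 1.27 ± 0.27 (adjusted p = 0.0103). Counted from the background limit, TPA arrays were at least 0.55 higher (log2). Without TPA replicate 1 the fitted difference was 0.84 and was not called (adjusted p = 0.064), and the bound fell to 0.11. Slc43a2, a relative with similar substrates, stood at 8.42 ± 0.28, 8.64 ± 0.11 and 8.39 ± 0.23, and Slc43a3, whose product carries purine nucleobases, at 6.87 to 6.98 on the control and expanded arrays and at 6.99 or just above on the TPA arrays. Neither was called.

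The carriers of glutamate, of small amino acids with protons, and the exchanger of glutamine were at or near background. Slc1a3, a glutamate carrier of glia, was called higher in expanded (adjusted p = 0.00972) and in TPA arrays (adjusted p = 0.00649) than in control. Its signals, 4.69, 4.82 and 4.95 in control, 5.29, 5.29 and 5.21 in expanded and 5.33 and 5.27 in TPA arrays, were all under the limit, so no size of difference is given. Slc1a5, the glutamine exchanger of many proliferating cells, read 6.46 ± 0.06, 6.48 ± 0.27 and 6.52 ± 0.30 and exceeded its limit on 1 array of each group. Its second probe set read 6.50 ± 0.04, 6.44 ± 0.10 and 6.20 ± 0.16. That one exceeded the limit on 2 of 3 control arrays and on no other array, and was not called (lowest adjusted p = 0.0635). Slc36a1, a proton-coupled carrier of lysosomes, read 6.69 and 5.90 on the TPA arrays, and only the first of these exceeded the limit. Slc1a7, a glutamate carrier of the retina, stood just above the limit (6.57 ± 0.17, 6.67 ± 0.14 and 6.71 ± 0.13) and was not called. Slc1a1, Slc1a2, Slc1a6, Slc36a2, Slc36a3 and Slc36a1os lay under it on every array and were not called.

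**Figure D3:**
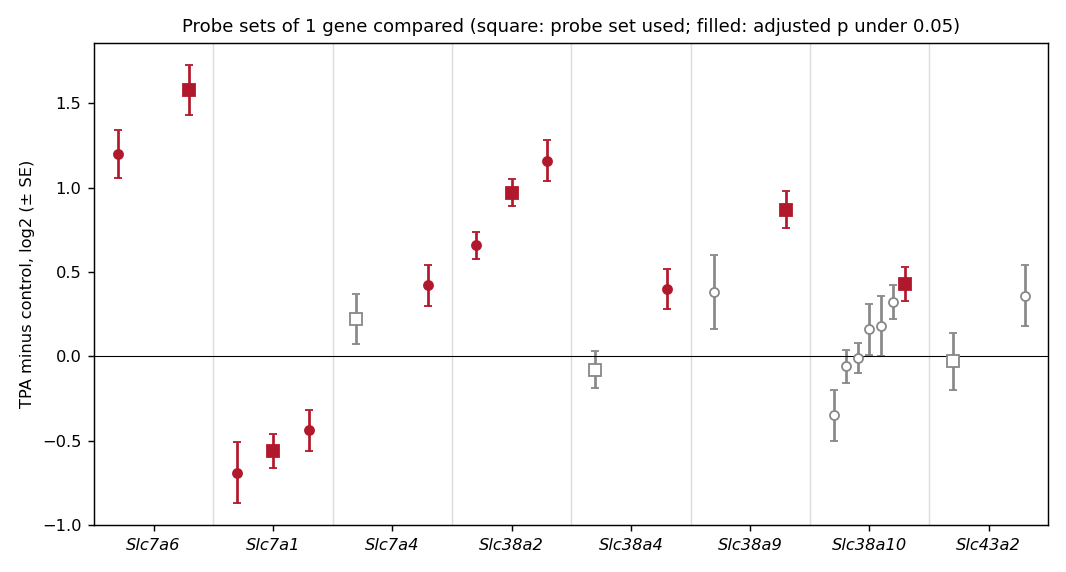
TPA minus control (vertical axis, log2 difference ± SE) for the probe sets of 8 members that exceeded background on at least 1 array. Squares are the probe sets used for the gene, circles the others, and filled symbols have an adjusted p under 0.05. All probe sets of Slc7a6 and Slc38a2 are filled above 0 and all of Slc7a1 below it, while those of Slc38a10 spread on both sides of 0. The differences of the circles of Slc7a6, Slc7a4 and Slc38a9 start from control signals under background and are not measured sizes.

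Of the 18 members with more than 1 probe set, every probe set of Slc7a6, Slc38a2 and Slc7a1 was called between TPA and control, each in the direction given above. For Slc7a6 1 of its 2 had a control under background. Signals of different probe sets cannot be set against each other as levels, because each binds its target differently. The strand of the labelled cDNA is not stated in the sources used here. In the RefSeq table the spans of Slc7a4, Slc38a9, Slc38a10 and Slc43a1 each overlap at least 1 other gene. Whether their probe sets lie in the shared stretch was not examined, so a part of the other gene in the signal was not tested.

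Other amino acid carriers, outside these families, also moved in both directions. Of 27 measured, 5 were higher and 1 lower in expanded than in control arrays (22.2% called, beside 11.5% of all genes and 17.5% of genes above background, median 0.03), and 4 were higher and 4 lower in TPA than in control (29.6%, beside 20.8% and 31.1%, median 0.06). Slc6a6, the taurine carrier, rose from 9.89 ± 0.20 in control to 11.07 ± 0.02 in expanded and 11.33 ± 0.03 in TPA arrays (1.18 ± 0.10, adjusted p = 0.000207, and 1.44 ± 0.11, adjusted p = 4.84e-05). Slc6a9, a glycine carrier, rose by 0.78 ± 0.08 and 0.93 ± 0.09. The peptide carrier Slc15a2 was higher in both (0.91 ± 0.22 in expanded and 1.13 ± 0.25 in TPA arrays). Slc66a1, an exporter of cationic amino acids from lysosomes, was lower in TPA arrays (-1.26 ± 0.23). Slc25a18, 1 of the 5 called higher in expanded arrays, lay under background on every array. Slc6a20a, 1 of the 4 called lower in TPA arrays, exceeded background on 1 control array and on no other. Between expanded and TPA 0 of the 27 were called by limma (5 at an unadjusted p under 0.05).

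Genes of the ATF4 and amino acid response were called lower more often than higher against control. Of 18 measured, 0 were higher and 7 lower in expanded than in control arrays. That is 38.9% (median -0.15), beside 11.5% of all genes and 17.5% of genes above background. In TPA arrays 3 were higher and 8 lower than in control. That is 61.1% (median -0.27), beside 20.8% and 31.1%. The pseudokinase Trib3, an ATF4 target, stood at 9.35 ± 0.16, 8.14 ± 0.03 and 6.76 ± 0.06, a difference of -1.22 ± 0.09 and of -2.59 ± 0.10 from control. The translation inhibitor Eif4ebp1 was lower in expanded (-0.43 ± 0.11) and in TPA arrays (-1.40 ± 0.12). By contrast Ppp1r15a, which restarts translation, was higher in TPA arrays (0.87 ± 0.09). Between expanded and TPA 4 were higher and 3 lower in expanded (38.9%, beside 5.98% of all genes and 9.31% of genes above background). These counts include Chac1, which lay under background on every array. It was called lower in both comparisons with control and higher in expanded than in TPA arrays.

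Synthesis and use of amino acids differed gene by gene. Of 19 measured enzymes of serine, glycine, proline, glutamine, arginine and glutathione metabolism, 1 was higher and 4 lower in expanded than in control arrays. That is 26.3% (median -0.09), beside 11.5% of all genes and 17.5% of genes above background. In TPA arrays 2 were higher and 7 lower than in control. That is 47.4% (median -0.15), beside 20.8% and 31.1%. Phgdh, the first enzyme of serine synthesis, was the one that rose in expanded arrays (0.78 ± 0.08, adjusted p = 0.000575). It was called higher in TPA arrays as well (0.70 ± 0.09, adjusted p = 0.00077). Arg1, which splits arginine, fell by 4.04 ± 0.20 on the log2 scale in expanded arrays. Only 2 of 3 expanded arrays were above background, so this size is approximate. In TPA arrays, whose signals were under background, Arg1 was at least 4.09 lower. Mthfd1l, a mitochondrial folate enzyme, fell in both (-0.71 ± 0.11 and -1.61 ± 0.12), and Gclm, a subunit of the enzyme that starts glutathione synthesis, fell by 1.04 ± 0.13 in TPA arrays.

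The cytosolic aminoacyl-tRNA synthetases load amino acids onto tRNA. Of 17 measured, 0 were called between expanded and control by limma (3 at an unadjusted p under 0.05, lowest adjusted p = 0.0551 for Gars). In TPA arrays 0 were higher and 9 lower than in control. That is 52.9% (median -0.30), beside 20.8% of all genes and 31.1% of genes above background. In expanded arrays 7 were higher and 0 lower than in TPA. That is 41.2% (median 0.26), beside 5.98% and 9.31%. Gars (-0.83 ± 0.08) and Iars (-0.75 ± 0.09), which load glycine and isoleucine, fell in TPA arrays. In the mTORC1 amino acid sensing list, of 25 measured genes 2 were higher and 2 lower in expanded than in control arrays (16.0%, beside 11.5% of all genes and 17.5% of genes above background, median 0.07), and 4 were higher and 4 lower in TPA arrays (32.0%, beside 20.8% and 31.1%, median 0.08), shares near those of genes above background. The leucine sensor Sesn2 fell in both (-1.03 ± 0.11 and -1.31 ± 0.12), while its relatives Sesn1 (1.11 ± 0.13 and 1.20 ± 0.14) and Sesn3 (0.66 ± 0.14 and 1.33 ± 0.16) rose. Castor2, of the family of arginine sensors, was at least 0.63 lower in expanded arrays, all under background. In TPA arrays, of which 1 of 2 was above background, it was -0.74 ± 0.10 apart from control.

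**Figure D4:**
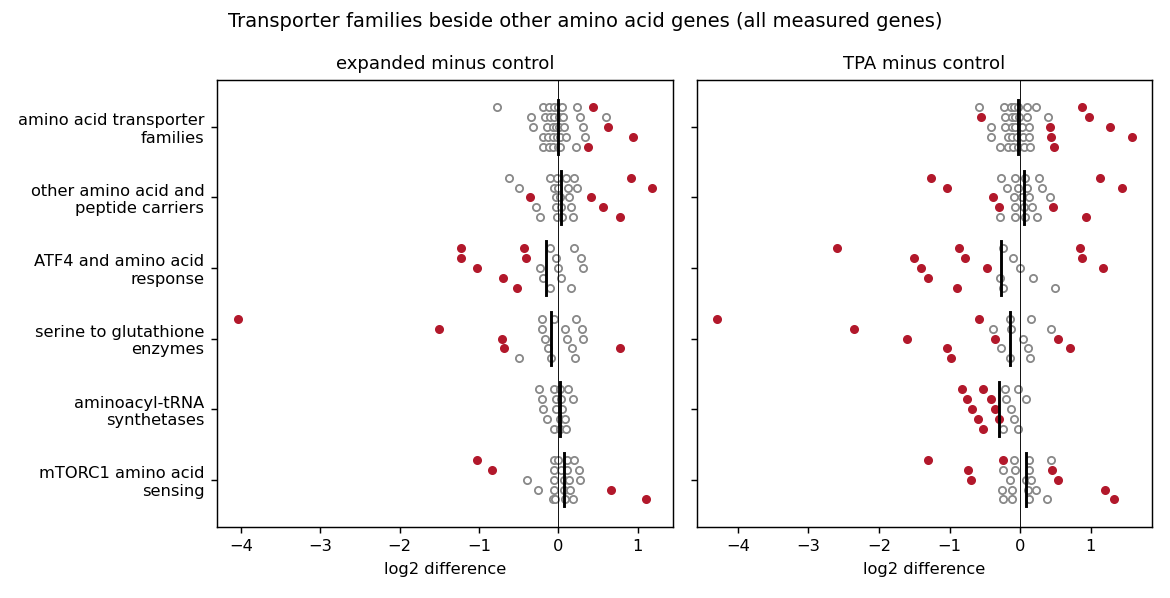
Log2 differences from control (horizontal axes) of all measured genes of the transporter families and of 5 other amino acid lists, with expanded arrays on the left and TPA arrays on the right. Each point is a gene, filled at an adjusted p under 0.05, and black bars are medians. The synthetases lie close to 0 in expanded arrays and have a median of -0.30 in TPA arrays.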

How the data were processed

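Per the submitters' processing notes, the authors made the deposited log2 signals with RMA (version and genome build are not given in the sources used here). Per the labels' protocols, RNA of 300 sorted cells was reverse transcribed and amplified before hybridization. The series' design text gives a different mouse for each sample. The 8 arrays had medians of 7.08 to 7.14 over genes and maxima of 13.63 to 13.68, and their number limits the precision. Of 45141 probe sets, 28898 carried 1 gene symbol in the platform annotation, which can be old. The one with the highest mean over all arrays stood for its gene, which gave 17097 genes. A model with 1 coefficient per group was fitted in R 4.3.3 by limma 3.58.1, using lmFit then eBayes, with 5 degrees of freedom left over and 3.54 from the prior. It was tested on simulated data. Alternatives were other scalings, background limits, priors, weights and probe set choices, a replicate block and omission of each array.

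The members and lists were chosen with earlier results of these data known. Named by rule were members above background and called in any comparison, 12 members fixed by name (Slc1a4 among them was not measured), the 2 under background with the smallest p (Slc1a3 and Slc7a9) and up to 4 genes with the smallest p per list. The other members were named to account for all, and Krt16 and the cell type markers after their values were seen. Same-numbered arrays did not pair: residuals of control and expanded arrays correlated at r = -0.18 to 0.03. Row order was checked with 42 pairs of probe sets of 1 gene (median r = 0.98, and 0.03 with a partner 1 row off).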

Additional observations from a re-analysis of the deposited data

How the results depend on the processing

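Between expanded and control the count of 4 called members became 7 with a trended robust prior, 7 with array weights and 0 by limma's test against a fold of 1.5 (11 at an unadjusted p under 0.05 against no change). Leaving out 1 array gave 2 to 6, with 2 without control replicate 2. Between TPA and control the 8 calls became 2 in the test against a fold of 1.5, and 7 to 11 without 1 array. Between expanded and TPA the 3 calls became 0 in that test (9 at an unadjusted p under 0.05 against no change). They became 1 with the replicate number as a block, and 1 to 3 without 1 array (1 without expanded replicate 3 or TPA replicate 1). The block gave 5 and 8 calls in the other comparisons, and 0 of 6 arrays correlated best with the array of their own number, so the numbers were not taken as pairs.

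Among members called above background, other probe sets turned the sign, each without passing. (An uncalled member, Slc38a4, had a probe set of the other sign that passed, as given above.) Expanded minus TPA was -0.12 for Slc7a4, 0.39 and 0.01 for Slc38a9, and 0.05 and 0.04 for Slc38a10. Slc38a10 also gave -0.08, -0.30, -0.12 and -0.08 for expanded minus control, and -0.35, -0.01 and -0.06 for TPA minus control. Slc7a5 in TPA minus control ranged from -0.38 to 0.21 when 1 array was left out, the latter without TPA replicate 1. The cause was not tested. The 18 members under background have no measured level here, and the limit rests on receptor genes being silent.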
